A study of Mus musculus with 24 samples.

Results

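The 9 genes described here are targets of glucocorticoid hormone in the liver or handle the hormone itself: Fkbp5, Tsc22d3, Sgk1, Zbtb16, Cebpd, Mt1, Mt2, Hsd11b1 and Serpina6. They were taken as all probe sets whose platform symbol is one of these names, which gave 9 probe sets, 1 for each gene, of 28815 on the array, and 9 of the 19935 genes tested. The samples are livers of adult male C57BL/6 mice. The mice had been entrained for 4 weeks to equal spans of light and dim red light and were then moved to constant dim red light with food freely available, and livers were taken on the second cycle. All groups share this strain, sex and housing and differ in circadian time (CT) alone: CT00, CT03, CT06, CT09, CT12, CT15, CT18 and CT21, with 3 arrays each from separate livers (24 Affymetrix Mouse Gene 1.0 ST arrays). The labels speak in one place of 4 mice harvested per time, and the series text names 4 time points and darkness where the sample labels give 8 times and dim red light. The sample labels are followed here. CT is by convention the hour after the time at which lights used to come on. The times before CT12 are called the subjective day below, and CT12 and later times the subjective night, in which mice are awake. Whole liver was used, so fewer cells of a type and less RNA per cell cannot be told apart.

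Corticosterone, the glucocorticoid of mice, is released by the adrenal gland in a daily rhythm that is high around the start of activity. In liver cells it binds the glucocorticoid receptor, which waits in the cytosol in a complex with HSP90 and its co-chaperones, then enters the nucleus and binds DNA at glucocorticoid response elements. Supply to the receptor depends on carriers and enzymes: corticosteroid-binding globulin, the product of Serpina6, carries the hormone in blood, and the enzyme encoded by Hsd11b1 regenerates it from its inactive keto form inside the cell. Hormone levels were not analysed here.

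Sequence around the gene start is shown for members whose letters bear on the groups that follow. The windows run from 250 bases before to 50 bases after a start in RefSeq (GRCm38.p6, both strands searched), and 6 of the 9 members have 13 windows in that table. Zbtb16, Serpina6 and Cebpd are named only. Mt1 and Mt2 lie next to each other in the RefSeq gene order and their values moved together, so both windows are given, Mt1 at chr8:94178839-94179138 (plus strand) and Mt2 at chr8:94172368-94172667 (plus strand). Capitals mark the metal response element core (TGCACNC or TGCGCNC).
Mt1: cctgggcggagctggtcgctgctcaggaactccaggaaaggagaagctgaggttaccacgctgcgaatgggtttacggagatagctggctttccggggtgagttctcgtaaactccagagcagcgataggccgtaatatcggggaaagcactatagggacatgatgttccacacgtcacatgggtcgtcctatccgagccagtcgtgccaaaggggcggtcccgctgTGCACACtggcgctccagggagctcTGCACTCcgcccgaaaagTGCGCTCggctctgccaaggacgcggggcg
Mt2: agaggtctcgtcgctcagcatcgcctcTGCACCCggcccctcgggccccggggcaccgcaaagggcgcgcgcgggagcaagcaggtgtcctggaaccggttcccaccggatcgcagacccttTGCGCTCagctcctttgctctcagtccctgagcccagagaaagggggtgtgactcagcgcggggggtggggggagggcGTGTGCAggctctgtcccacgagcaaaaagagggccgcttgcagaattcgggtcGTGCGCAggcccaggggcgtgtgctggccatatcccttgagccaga
The core occurred 3 times in the Mt1 window and 4 times in the Mt2 window. It was present in 25.7% of 32851 windows of the same length, among them a window each of Hsd11b1 and Sgk1. The Fkbp5 window is given because it holds an E-box (CACGTG, in capitals), the element that clock factors bind, at position -169 from the start, in chr17:28486100-28486399 (minus strand).
Fkbp5: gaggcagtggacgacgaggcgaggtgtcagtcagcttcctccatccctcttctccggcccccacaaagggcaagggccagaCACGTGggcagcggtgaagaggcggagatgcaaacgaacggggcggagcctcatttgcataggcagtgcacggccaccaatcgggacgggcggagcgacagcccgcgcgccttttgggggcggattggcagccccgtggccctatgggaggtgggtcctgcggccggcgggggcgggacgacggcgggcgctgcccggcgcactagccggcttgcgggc
An E-box was present in 7.15% of all windows, among them the Sgk1 window printed next, at position -246. One of the 6 Sgk1 windows is given because it holds the complete palindrome of the glucocorticoid response element (AGAACA, any 3 bases, then TGTTCT, in capitals), at chr10:21993640-21993939 (plus strand).
Sgk1: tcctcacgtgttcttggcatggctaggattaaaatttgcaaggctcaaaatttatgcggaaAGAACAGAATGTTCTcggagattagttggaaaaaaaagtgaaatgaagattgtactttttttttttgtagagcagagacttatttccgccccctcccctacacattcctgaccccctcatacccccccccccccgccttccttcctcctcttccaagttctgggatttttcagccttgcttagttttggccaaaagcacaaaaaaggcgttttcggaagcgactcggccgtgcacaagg
Only 3 of the 32851 windows (0.00913%) held these letters in full. The single arm of the palindrome (AGAACA), which the complete element contains, was present in 19.0% of windows, among them windows of Tsc22d3 and Sgk1. The D-box (TTATGTAA or TTATGCAA, 1.66% of windows) and the ROR element core (GTAGGTCA, 0.621%) had no match in the 13 windows. These matches describe letters in a short window and say nothing of binding there or elsewhere in the gene.

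Values throughout are the deposited log values, read as base 2, in which 0 is the gene's own median across arrays, so they compare times within a gene and give no level of a gene against another. Of the 9 genes, 5 followed a 24 h wave: Fkbp5, Tsc22d3 and Serpina6 with peaks in the subjective night, and Mt1 and Mt2 with peaks in the late subjective day. The wave is a cosine and sine of period 24 h fitted with limma, called at a Benjamini-Hochberg adjusted p under 0.05 over all genes. Among all genes 13.8% were called in this fit. A second test, limma's moderated F for equality of the 8 times, which allows any shape, called the same 5 members (10.9% of all genes). The members were chosen with earlier results of these data known, so their share is a description.

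**Figure D1:**
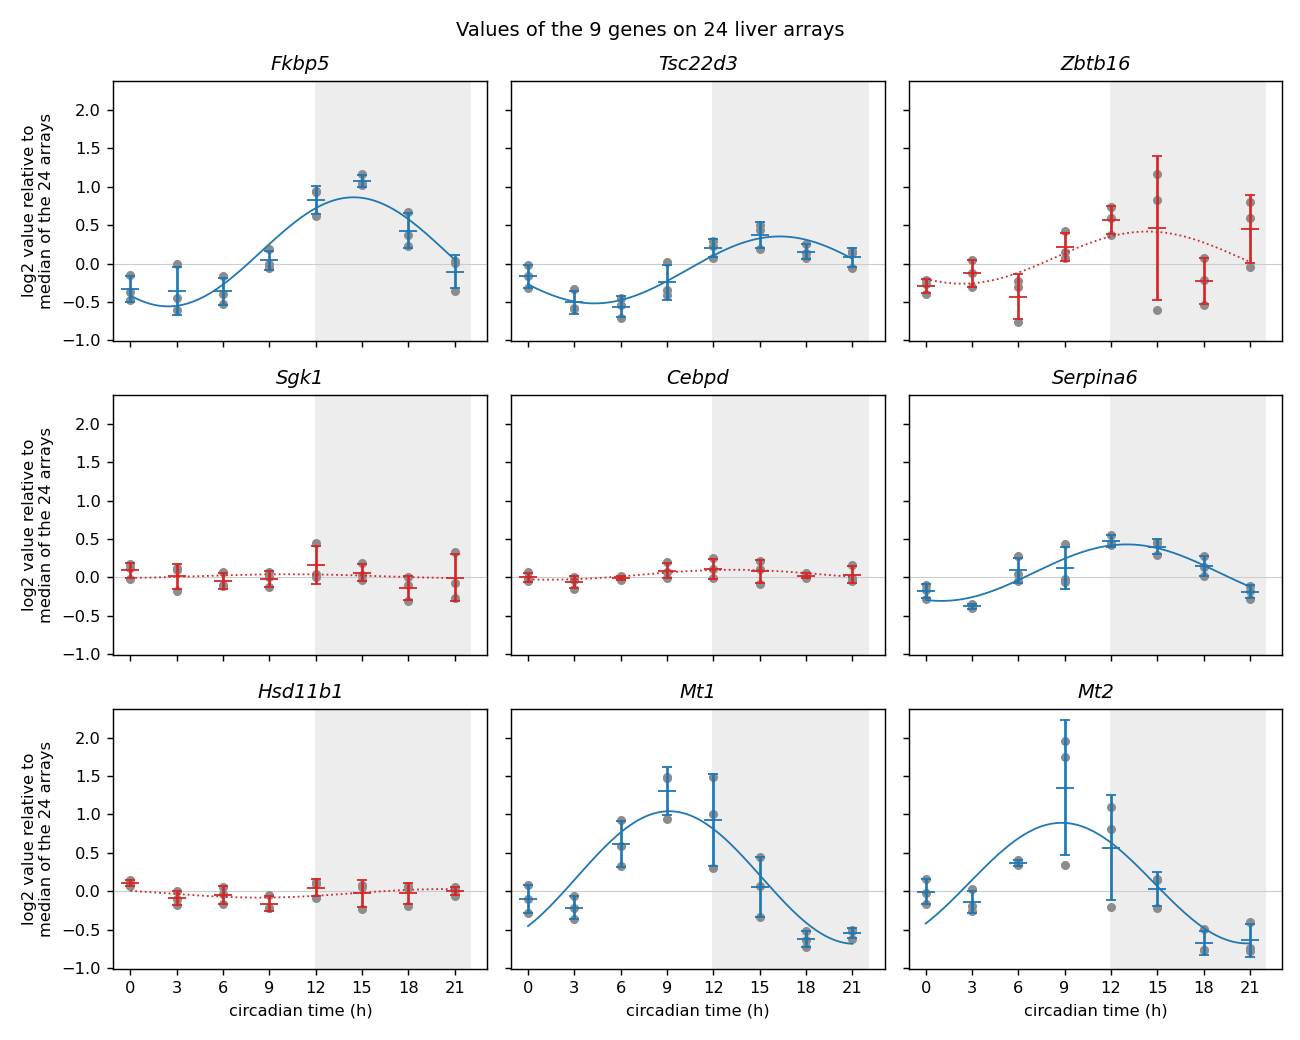
Values of the 9 genes on each array (grey points) against circadian time in hours, as log2 relative to the median of the 24 arrays; horizontal ticks and bars are the mean and SD of 3 arrays, lines the fitted 24 h wave (solid blue where called, dotted red where not), and shading marks the subjective night. Fkbp5 stood highest at CT15, Serpina6 at CT12 and both metallothionein genes at CT09, whereas Sgk1, Cebpd and Hsd11b1 stayed between -0.31 and 0.44 on every array.

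Serpina6, the carrier protein gene, was 1.67-fold higher at its fitted peak than at its trough and peaked at 13.0 h ± 0.44 (SE). Its values by array were -0.28, -0.16 and -0.097 at CT00, -0.40, -0.34 and -0.38 at CT03, 0.045, -0.051 and 0.27 at CT06, and -0.021, -0.055 and 0.44 at CT09. In the night they were 0.42, 0.45 and 0.56 at CT12, 0.46, 0.29 and 0.45 at CT15, 0.021, 0.13 and 0.28 at CT18, and -0.11, -0.18 and -0.28 at CT21. The 3 arrays of CT03 lay below those of every other time, and the arrays of CT12 and CT15 overlapped each other. In the order of means CT15 stood clear of CT18, CT06 clear of CT00, and CT21 clear of CT03, while the other neighbours overlapped. The amplitude was 0.37 ± 0.042 (log2, SE, 24 arrays), with limma adjusted p = 2.98e-06, and the fitted wave took up 76.4% of the variance between arrays. Array 3 of CT09 stood 0.44 above the median, apart from the other arrays of that time.

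Hsd11b1, the regenerating enzyme, was not called (amplitude 0.056 ± 0.033, limma adjusted p = 0.585). Its mean was highest at CT00, 0.10 ± 0.04 (SD, n = 3), with 0.071, 0.15 and 0.085 on the arrays. It was lowest at CT09, -0.17 ± 0.096 (SD, n = 3), with -0.22, -0.22 and -0.054. The arrays of these 2 times did not overlap, but every pair of neighbours in the order of the means did. The 2 times were picked from these values as highest and lowest, so their lack of overlap is no test. How often all genes show it was not counted. With a 0.384 range over all 24 arrays Hsd11b1 had the smallest range of the 9 genes. In the test of the 8 times it passed under array weights alone (adjusted p = 0.0474, against 0.384 with equal weights). With those weights the test called 4900 of the 19935 genes, against 2167 with equal weights.

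Among the targets of the receptor, Fkbp5 had the smallest p in the 24 h fit. It encodes an HSP90 co-chaperone that lowers the hormone affinity of the receptor, and its own transcription is induced by the receptor. The values were -0.47, -0.37 and -0.14 at CT00, -0.45, -0.0069 and -0.61 at CT03, -0.17, -0.52 and -0.40 at CT06, and 0.18, -0.054 and -0.0082 at CT09. At night they were 0.94, 0.93 and 0.62 at CT12, 1.02, 1.05 and 1.17 at CT15, 0.23, 0.37 and 0.68 at CT18, and 0.0069, 0.028 and -0.35 at CT21. All 3 arrays of CT15 lay above all arrays of the other times, and CT18 stood clear of CT09, next in order after it. The means of CT00, CT03, CT06 and CT21 followed one another with overlapping arrays. The peak-to-trough fold was 2.68 with a peak at 14.4 h ± 0.35 (SE), and the adjusted p of 8.70e-08 ranked 83 of all genes. The largest step between neighbouring times was the one to CT12, 0.79 above CT09 in the mean, and CT18 was 0.65 below CT15. The amplitude of 0.71 ± 0.065 exceeded that of 99.8% of all genes.

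Tsc22d3 encodes GILZ, a leucine zipper protein through which glucocorticoids dampen inflammation. Its arrays read -0.017, -0.16 and -0.31 at CT00, -0.60, -0.33 and -0.58 at CT03, -0.45, -0.53 and -0.72 at CT06, and 0.017, -0.35 and -0.40 at CT09. They read 0.075, 0.30 and 0.23 at CT12, 0.50, 0.18 and 0.44 at CT15, 0.068, 0.26 and 0.14 at CT18, and 0.13, 0.17 and -0.057 at CT21. The trough was spread over CT03 and CT06, and each time overlapped the next in the order of the means. The 3 arrays of CT15 nevertheless lay above all 3 of CT03, CT06, CT09, CT00 and CT21. The wave was 1.83-fold with a peak at 16.3 h ± 0.38 (SE) and an amplitude of 0.44 ± 0.043 (limma adjusted p = 3.11e-07). At CT21 the mean of Tsc22d3 was 0.082 ± 0.12 and that of Fkbp5 -0.11 ± 0.22 (SD, n = 3), while both genes were highest at CT15.

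Zbtb16, which encodes the transcriptional repressor PLZF, was not called in the 24 h fit (1.6-fold, peak at 14.4 h ± 1.4, limma adjusted p = 0.173) or in the test of the 8 times (adjusted p = 0.0969). Its arrays read 0.74, 0.60 and 0.37 at CT12, the highest time, against -0.30, -0.23 and -0.77 at CT06, the lowest time. The 2 times were picked by their means, so their lack of overlap is no test. At CT15 they read 1.17, -0.60 and 0.82, the widest spread of any member at any time (SD 0.94, n = 3), so that both the highest array of this gene and 1 of its lowest came from CT15. Without array 2 of CT15 the gene passed both tests (adjusted p = 0.0299 and 0.000513). That array also had the second-widest spread of values over all probe sets (interquartile range 0.174, against 0.0992 on the array with the narrowest). At CT21 array 1 read -0.049, array 2 0.60 and array 3 0.80, and the last of these had the widest interquartile range of all arrays (0.20). Without the 4 arrays of widest interquartile range the adjusted p in the 24 h fit was 0.00276, and with array weights it was 0.018. In the 24 h fit Zbtb16 stayed uncalled under 41 of 45 alternatives (highest adjusted p 0.507). Leaving out single arrays in turn gave a call in 1 of 24 cases. In the test of the 8 times it stayed uncalled under 31 of 35 alternatives (highest adjusted p 0.425).

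Sgk1, the serum- and glucocorticoid-regulated kinase gene, did not pass either test (24 h amplitude 0.025 ± 0.048, limma adjusted p = 0.962; test of the 8 times, adjusted p = 0.686). Its highest mean was at CT12, 0.16 ± 0.25, and its lowest at CT18, -0.14 ± 0.16 (SD, n = 3), and the arrays of the times overlapped throughout the order. Array 3 of CT12 alone reached 0.44, and the other arrays of that time read -0.00044 and 0.04. Cebpd, a C/EBP transcription factor gene of the acute phase response, gave an amplitude of 0.065 ± 0.026 (adjusted p = 0.241). Its mean was highest at CT12, 0.11 ± 0.13, and lowest at CT03, -0.061 ± 0.08 (SD, n = 3), again with overlap between all neighbours. It passed the 24 h fit under array weights (adjusted p = 0.035) and without the 4 arrays of widest interquartile range (0.0345), at a fold of 1.09 in the fit of all arrays. Under the other 43 of 45 alternatives it stayed uncalled.

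**Figure D2:**
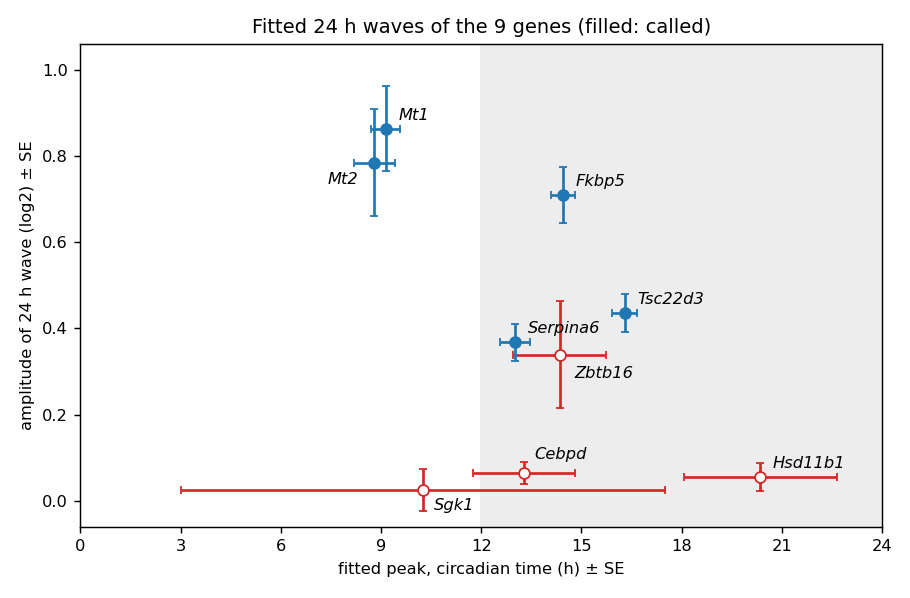
Amplitude of the fitted 24 h wave (log2, vertical) against its fitted peak (circadian hours, horizontal) for the 9 genes, with standard errors from 24 arrays; filled blue points were called, open red points were not, and shading marks the subjective night. Mt1 and Mt2 lie together near 9 h with the largest amplitudes, and Serpina6, Fkbp5 and Tsc22d3 follow between 13.0 and 16.3 h.

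The metallothionein genes had the widest swings of the group. Mt1 and Mt2 encode small cysteine-rich proteins that bind zinc and copper, and both are induced by metals and by glucocorticoids. Mt1 read -0.29, -0.099 and 0.081 at CT00, -0.21, -0.069 and -0.36 at CT03, 0.59, 0.33 and 0.93 at CT06, and 1.47, 1.49 and 0.94 at CT09. At night it read 1.48, 0.30 and 1.01 at CT12, 0.44, -0.34 and 0.069 at CT15, -0.51, -0.63 and -0.72 at CT18, and -0.62, -0.52 and -0.50 at CT21. Values at CT18 and CT21 lay below those of all other times, and the arrays of CT09 and CT12 overlapped. The fit gave a 3.31-fold wave with a peak at 9.14 h ± 0.44 (amplitude 0.86 ± 0.099, SE, limma adjusted p = 2.68e-06).

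Mt2 followed the same course with a wider spread near the peak. It read -0.17, -0.022 and 0.16 at CT00, -0.20, 0.022 and -0.26 at CT03, 0.41, 0.34 and 0.35 at CT06, and 1.95, 1.75 and 0.34 at CT09. Later it read 1.09, -0.20 and 0.80 at CT12, 0.15, -0.22 and 0.16 at CT15, -0.49, -0.77 and -0.77 at CT18, and -0.79, -0.75 and -0.40 at CT21. At CT09 array 3 stood with the arrays of CT06, and at CT12 array 2 stood with those of CT03, and both arrays were also the lowest of their time for Mt1. The wave was 2.97-fold with a peak at 8.80 h ± 0.61 (amplitude 0.79 ± 0.12, adjusted p = 0.000231). Within each array Mt1 minus Mt2 ranged from -0.48, on array 1 of CT09, to 0.60, on array 3 of CT09. Each gene is centred on its own median, so this difference does not say which had more RNA. Over the 24 arrays the correlation of the 2 genes was 0.933, and it was 0.790 between deviations from the time means. These are descriptions over arrays that share time points, and signal of such similar transcripts cannot be told apart with certainty on the array. On array 3 of CT09 the mean of the 8 Kupffer cell markers was -0.52, the lowest of all arrays (the highest was 0.30, on array 3 of CT15). Its part in the Mt2 value was not tested, and without that array the Mt2 amplitude was still called, as it was without any other single array (highest adjusted p 0.000711).

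**Figure D3:**
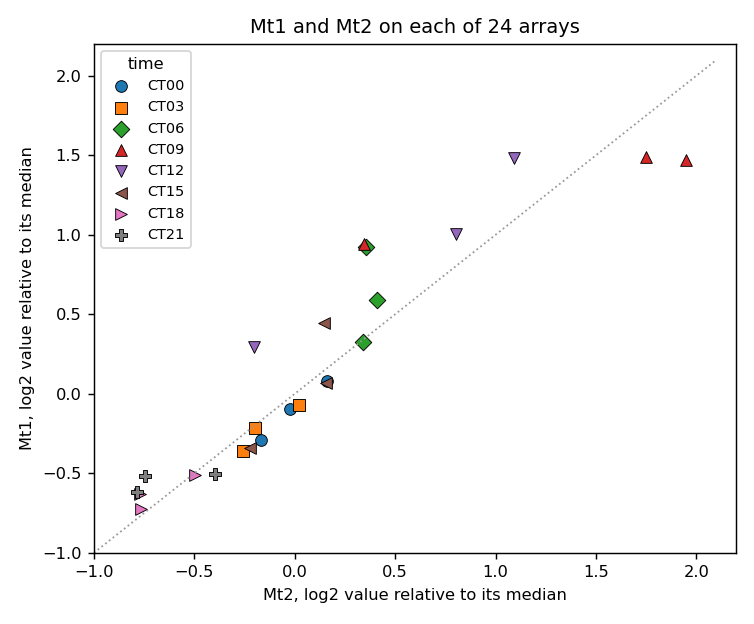
Mt1 (vertical) against Mt2 (horizontal) on each of the 24 arrays, both as log2 relative to the median of the gene, with colour and marker for circadian time and a dotted line where the 2 values are equal. Arrays 1 and 2 of CT09 stand at the top right, CT18 and CT21 at the bottom left, and array 3 of CT09 and array 2 of CT12 lie above the line at lower values of Mt2.

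The differences between times 12 h apart set the groups of genes against each other. At CT12 against CT00, 3 of 9 members were higher and 0 lower (3.46% of all genes called, 1.79% higher and 1.67% lower). Fkbp5 averaged 0.83 ± 0.18 at CT12 and -0.33 ± 0.17 at CT00 (SD, n = 3 each), a difference of 1.16 ± 0.15 (SE, limma adjusted p = 3.67e-05). Serpina6 averaged 0.47 ± 0.074 at CT12 and -0.18 ± 0.091 at CT00, a difference of 0.65 ± 0.11 (adjusted p = 0.000546). Mt1 averaged 0.93 ± 0.60 at CT12 and -0.10 ± 0.19 at CT00 (difference 1.03 ± 0.23, adjusted p = 0.0107). This last call was lost without array 1 of CT00 (adjusted p = 0.0718), array 1 of CT12 (0.0908) or array 3 of CT12 (0.0527). Mt2 did not pass (0.57 ± 0.31, adjusted p = 0.535).

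At CT15 against CT03 the 3 members called were all higher (4.48% of all genes called, 2.68% higher and 1.8% lower). Fkbp5 averaged 1.08 ± 0.078 at CT15 and -0.35 ± 0.31 at CT03 (SD, n = 3 each), a difference of 1.43 ± 0.15 and a fold of 2.70 (limma adjusted p = 3.31e-06). Tsc22d3 averaged 0.38 ± 0.17 at CT15 and -0.50 ± 0.15 at CT03 (difference 0.88 ± 0.11, adjusted p = 5.90e-05). Serpina6 averaged 0.40 ± 0.098 at CT15 and -0.38 ± 0.031 at CT03 (difference 0.78 ± 0.11, adjusted p = 9.58e-05). Mt1 (0.27 ± 0.23) and Mt2 (0.17 ± 0.31) stood near equal values at these times and did not pass. Zbtb16 passed this contrast without array 2 of CT15 (adjusted p = 0.00423, against 0.362 with it), and stayed uncalled under 33 of 35 alternatives.

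At CT18 against CT06 the members called went in opposite directions. Fkbp5 was 0.79 ± 0.15 higher at CT18 (adjusted p = 0.00286) and Tsc22d3 0.72 ± 0.11 higher (adjusted p = 0.000726), in a contrast with 4.64% of all genes called and 1.43% higher. Mt1 averaged -0.62 ± 0.11 at CT18 and 0.62 ± 0.30 at CT06 (SD, n = 3 each), and fell by 1.24 ± 0.23 (limma adjusted p = 0.00263; 3.21% of all genes were lower). For Mt2 the difference was -1.04 ± 0.31 with an adjusted p of 0.0544, which ranged from 0.00603 to 0.174 over 35 alternatives. At CT21 against CT09 the 2 members called were both lower (3.56% of all genes called, 1.56% higher and 2% lower). Mt1 averaged -0.55 ± 0.062 at CT21 and 1.30 ± 0.31 at CT09, a fall of 3.60-fold (adjusted p = 3.12e-05). Mt2 averaged -0.64 ± 0.21 at CT21 and 1.35 ± 0.87 at CT09, a fall of 3.98-fold (adjusted p = 0.000433). Fkbp5 differed by -0.15 ± 0.15 between these times and did not pass (adjusted p = 0.793), and Serpina6 by -0.31 ± 0.11 (adjusted p = 0.134). Sgk1, Hsd11b1, Cebpd and Zbtb16 passed none of the 4 contrasts with equal array weights and all arrays. Zbtb16 passed at CT12 against CT00 with array weights (adjusted p = 0.0133), without array 2 of CT15 (0.0111) and without the 4 arrays of widest interquartile range (0.00503), against 0.175. Under the other 32 of 35 alternatives this contrast of Zbtb16 stayed uncalled.

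**Figure D4:**
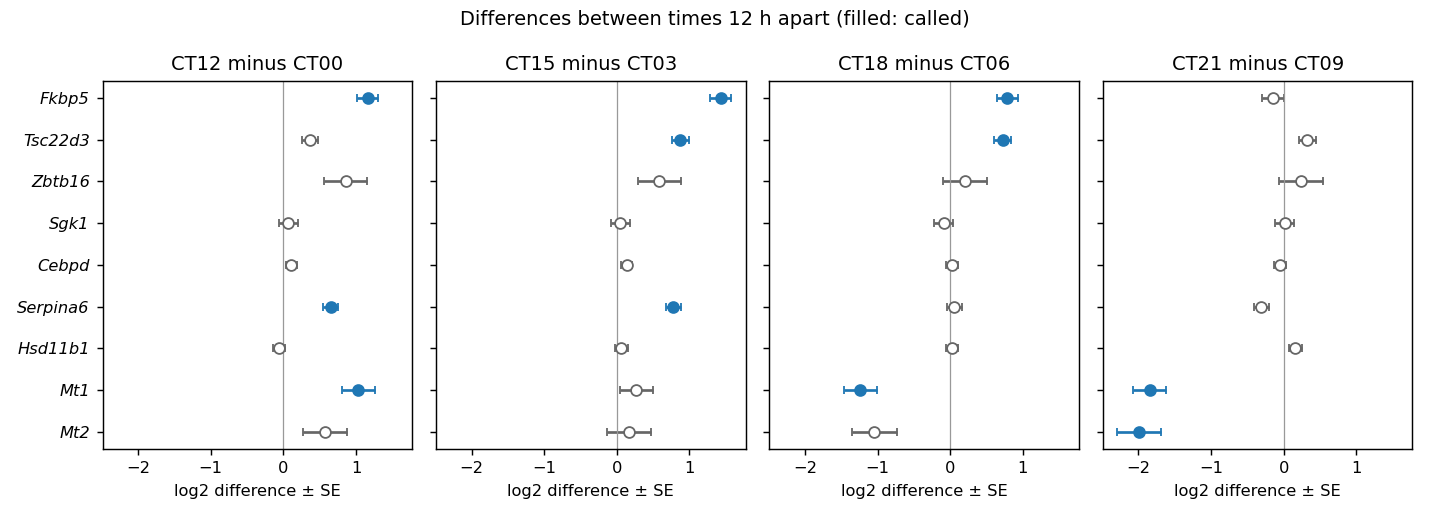
Log2 difference (horizontal, with SE) of the later minus the earlier time for each of the 9 genes in the 4 contrasts between times 12 h apart; filled blue points were called at an adjusted p under 0.05 and open points were not. Fkbp5 lies right of 0 in 3 contrasts and Mt1 lies left of 0 in the contrasts of CT18 with CT06 and of CT21 with CT09.

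A component of period 12 h, added to the 24 h wave, was called for 0 of 9 members (limma, 0.577% of all genes called). At an unadjusted p under 0.05 there were 4 members, beside 3339 of all 19935 genes. Fkbp5 came nearest, with a 12 h amplitude of 0.23 (adjusted p = 0.0624). Its call appeared without array 3 of CT03 (adjusted p = 0.0388), without array 3 of CT18 (0.0465), and with the least variable genes left out (0.031). Mt1 had a 12 h amplitude of 0.31 (adjusted p = 0.119), and was called without array 2 of CT12 (0.0294). The arrays of CT00 differed in the clock gene Nr1d1, which encodes REV-ERB alpha and was named after its values were seen, with -1.71, -0.78 and -0.17 on arrays 1 to 3. Array 1 was also the lowest and array 3 the highest of CT00 for Fkbp5, Serpina6, Mt1 and Mt2, and the other way round for Tsc22d3. Without all 3 arrays of CT00, the 24 h calls of these 5 genes remained.

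The genes most like each member were found by the highest Pearson correlation over the 24 arrays, which share their time points, so genes with waves of the same phase correlate. Each was picked as the highest over all genes outside the members, so a high value is found for any gene, and none was tested. For Fkbp5 these were Fmo2 (r = 0.954), a flavin monooxygenase gene with a peak at 14.1 h, and Gde1 (r = 0.933), a glycerophosphodiester phosphodiesterase gene. For Tsc22d3 they were the tetraspanin gene Tspan4 (r = 0.929, 2.22-fold, peak at 16.1 h) and Mcrip2 (r = 0.905). Serpina6 was closest to Bnip3 (r = 0.950, peak at 12.8 h), a mitophagy receptor gene, and Ap3m1 (r = 0.915), an adaptor complex subunit gene. Mt1 was closest to the phosphatase gene Ppm1a (r = 0.926, peak at 9.18 h) and the triglyceride lipase gene Pnpla2 (r = 0.918, peak at 9.30 h). Mt2 was closest to Klhl21 (r = 0.858) and the autophagy kinase gene Ulk1 (r = 0.853, peak at 8.96 h). Zbtb16 was closest to Tbc1d8 (r = 0.770) and to the interleukin 6 receptor gene Il6ra (r = 0.759). The neighbours of Hsd11b1 (Pnpt1 at 0.866 and Sdcbp at 0.855), Cebpd (Olfr1310 at 0.751 and Pramel23 at 0.727) and Sgk1 (Bbs7 at 0.681 and Klrc1 at 0.643) were not called in the 24 h fit. Among the members, Fkbp5 correlated with Tsc22d3 at 0.805 and with Serpina6 at 0.784, and with Mt1 at 0.125.

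Other genes of the pathway were read from lists chosen with earlier results of these data known, and are given by counts beside the 13.8% of all genes called and the median amplitude of 0.046 over all genes. The list of the receptor and its chaperones also holds the mineralocorticoid receptor gene Nr3c2 and coregulator genes such as Ncoa2. Of the 13 tested genes in this list, 10 were called (76.9%, median amplitude 0.20), 8 with a night peak and 2 with a day peak. The leading ones were Hsp90aa1, the inducible HSP90 gene (2.22-fold, 18.9 h), Stip1, which links HSP70 to HSP90 (1.66-fold, 18.2 h), and Fkbp4 (1.54-fold, 19.9 h), the relative of FKBP5 that aids receptor transport. Fkbp4 thus peaked at 19.9 h ± 0.54, later than Fkbp5 at 14.4 h ± 0.35, and this difference was not tested. The receptor gene itself, Nr3c1, named after its values were seen, was not called (amplitude 0.024 ± 0.028, limma adjusted p = 0.898). The 2 day peaks of the list were those of Nr3c2 (7.97 h) and Ncoa2 (6.37 h), also named after their values were seen.

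Of 18 other glucocorticoid-responsive genes 10 were called (55.6%, median amplitude 0.26), 7 with a day peak and 3 with a night peak. Lpin1, a phosphatidate phosphatase gene, had 3.54-fold with a peak at 12.5 h ± 0.48, and the clock gene Per1 2.73-fold at 12.2 h ± 0.34 (SE). Their peaks thus count as night but each lay less than its SE after CT12. Ddit4, an inhibitor of mTORC1, peaked at 19.9 h (1.45-fold). Of 18 steroid enzymes and carriers 7 were called (38.9%, median amplitude 0.10). Hsd3b7, of bile acid synthesis, peaked at 2.88 h (2.06-fold), Hsd17b2, which inactivates sex steroids, at 2.22 h (1.53-fold), and the steroid reductase gene Akr1c14 at 13.9 h (1.35-fold). H6pd, which supplies the cofactor of the Hsd11b1 enzyme and was named after its values were seen, did not pass (adjusted p = 0.0579).

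Of 12 metal handling genes 4 were called (33.3%, median amplitude 0.098). The manganese exporter gene Slc30a10 peaked at 23.2 h ± 0.29 (2.31-fold), the zinc and iron importer gene Slc39a14 at 11.5 h ± 0.40 (1.42-fold), and Slc39a8, another metal importer gene, at 1.59 h (1.21-fold). Of 19 family relatives of the members 7 were called (36.8%), led by Sgk2 (1.75-fold, 3.74 h), Sgk3 (1.33-fold, 10.3 h) and Cebpg (1.17-fold, 14.2 h). Among 9 tested serpins 1 was called (11.1%), Serpina7, the thyroxine-binding globulin gene, with a peak at 4.95 h ± 0.88 (2.23-fold, adjusted p = 0.01), against the 13.0 h of Serpina6. Serpina12 (adjusted p = 0.0699) and Serpinc1 (adjusted p = 0.161) did not pass, and 7 serpins had no probe set with a single symbol. Of 18 acute phase genes 7 were called (38.9%, median amplitude 0.086), with Apcs at 3.97 h, Fgg at 2.30 h and Il6ra at 12.5 h as the leading ones. All 13 tested clock genes were called. Of these Tef, a PAR bZIP factor, peaked at 12.0 h, Per2 at 15.2 h, between Fkbp5 and Tsc22d3, and Cry1 had its highest mean at CT21. Per1 is counted in this list too.

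**Figure D5:**
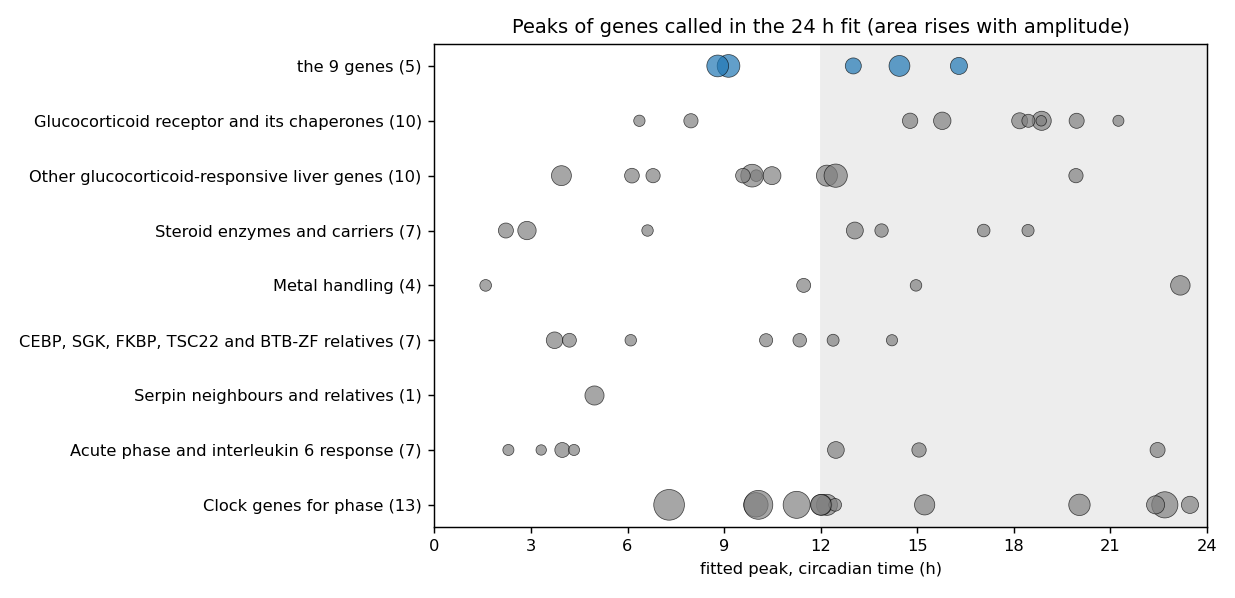
Fitted peaks (circadian hours, horizontal) of genes called in the 24 h fit, 1 row for the 9 genes and 1 for each list, with the number called in brackets; the area of a point rises with amplitude and shading marks the subjective night. The called genes in the list of the receptor and its chaperones stand mostly right of 12 h. In the list of other glucocorticoid-responsive genes 7 of the 10 called stand left of it, and Per1 and Lpin1 stand just right of it.

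Markers of cell types were read from 11 lists with 58 tested genes, of which 4 were called in the 24 h fit (6.9%), 1 each in the hepatocyte, stellate cell, bile duct and adipocyte lists. Centring leaves no level, so whether hepatocyte markers were abundant in these livers cannot be read from the values. The endothelial markers averaged -0.17 at CT09 and 0.12 at CT15, with 1 of 7 called in the test of the 8 times. The bile duct markers averaged 0.14 at CT00 and -0.15 at CT12 (1 of 4 called). CT09, CT12 and CT15 were also the times of the highest means of the metallothionein genes, Serpina6 and Fkbp5, in that order. The lowest means of these genes fell at other times (CT18, CT03 and CT06). The part of the marker means in the results of the members was not tested.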

How the data were processed

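Liver RNA of 24 mice was hybridized to 24 arrays, 1 liver each, per the labels' protocols. The deposited values were read as log2, an assumption. The values show that each probe set is centred on a median of 0 (largest absolute row median 5e-07). Background correction, summarization, normalization and the log base were not given in the sources used here. Values ran from -2.62 to 2.64. The number of arrays limits the precision. No filter on dim probe sets could be set. Of 28815 probe sets, 21780 had 1 symbol in the platform annotation, 1605 had several and 5430 were not listed there. Symbols were updated through Entrez identifiers (0 changed), and several probe sets of a gene were averaged.

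Models were fitted to 19935 genes with limma 3.58.1 (R 4.3.3), variances were moderated by empirical Bayes, and p-values were adjusted by Benjamini-Hochberg across genes (threshold 0.05). The scripts were tested on simulated data. Standard errors of amplitude and peak come from the delta method, and figures from matplotlib 3.10.9. The members and gene lists were chosen with earlier results of these data known. Genes named are the 9 members, the 3 smallest p of each list and the 2 genes closest to each member. Nr1d1, Nr3c1, Nr3c2, Ncoa2 and H6pd were added after their values were seen. Serpins and other genes whose probe sets carry several symbols were left out. Alternatives changed the moderation, weights, scaling, probe set rule, block, filter, period and arrays.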

Additional observations from a re-analysis of the deposited data

How the results depend on the processing

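The 24 h calls of Fkbp5, Tsc22d3, Serpina6, Mt1 and Mt2 held under all 45 alternatives, and those of Sgk1 and Hsd11b1 stayed absent under all 45. A 24 h call stayed absent for Zbtb16 under 41 of the 45 and for Cebpd under 43. Over all members, tests and alternatives, 2262 of 2295 values stayed on their side of the threshold, 3 calls were lost, 30 appeared and 0 turned direction. Of the other named genes 4 calls were lost (Serpina7 without all arrays of CT03, adjusted p = 0.0587, or CT18, 0.129, and Slc39a8 without those of CT03, 0.0687, or CT12, 0.053) and 5 appeared. The number of genes called in the 24 h fit ranged from 2452 to 2874 when single arrays were left out. The test of the 8 times called 4900 genes with array weights and 1282 without the 4 arrays farthest from the others, against 2167. The 12 h component called 50 genes without moderation, 57 after quantile normalization, 183 without the least variable genes, 22 without the 4 farthest arrays and 20 without the 4 arrays of widest interquartile range, against 115. At CT12 against CT00, 1388 genes were called with array weights, against 690. At CT18 against CT06, 567 were called without the widest arrays, against 925. At CT21 against CT09, 1211 were called with array weights, 188 without the farthest and 402 without the widest arrays, against 709. Leaving out single arrays gave 47 (without CT15 replicate 2) to 188 (without CT15 replicate 1) genes for the 12 h component, 400 (without CT00 replicate 1) to 739 for CT12 against CT00, 535 (without CT03 replicate 1) to 1012 for CT15 against CT03, 475 (without CT18 replicate 2) to 1032 for CT18 against CT06, 420 (without CT21 replicate 3) to 785 for CT21 against CT09, and 1824 to 2562 for the test of the 8 times. Other single arrays that moved a count by over 1.5 times were replicate 2 of CT00 (422) and replicate 3 of CT12 (437) for CT12 against CT00, replicate 3 of CT06 (501) for CT18 against CT06, and replicate 2 of CT21 (441) for CT21 against CT09. For the 12 h component they were replicates 2 and 3 of CT00 (61 and 63), 2 of CT03 (76), 3 of CT06 (183), 1 and 2 of CT09 (74 and 66), 3 of CT15 (69), and 2 and 3 of CT21 (75 and 48). The causes of these shifts were not tested, other than fewer arrays or genes where these were left out. Leaving out the widest arrays was chosen after seeing the data.

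With the replicate number as a block, the 24 h fit called 2984 genes, and no call of a member changed. The test of the 8 times called 2664 genes with the block. Deviations from the time means correlated over 0.1 in 45 of 84 same-numbered pairs (median 0.111, range -0.40 to 0.50), against 45 of 168 differently numbered pairs (median -0.062). Same-numbered arrays were thus more alike on the median, but not in every pair, and the labels give no shared origin for equal numbers, so the block is kept as an alternative.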
